A study of Drosophila melanogaster with 11 samples.

Results

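In *Drosophila*, the *even skipped* (*eve*) gene, which encodes a segmentation transcription factor, lies in a TAD (topologically associating domain, a stretch of chromatin that contacts itself more than its neighbors) bounded by 2 insulator elements, *nhomie* and *homie*. Boundary elements of this kind bind each other with a preferred orientation. In the model that motivated the experiment, native *nhomie* and *homie* pair so that the chromatin between them forms a stem-loop, set apart from its neighbors, which themselves come close to each other. An inverted *nhomie* would form a circle-loop instead, in which the *eve* TAD is open to its neighbors. The comparison described here is between embryos in which *nhomie* was put back inverted (*nhomie reverse*) and embryos in which it was put back in its native orientation (*nhomie forward*), and it asks how contacts of the whole genome were spread over separations and chromosomes in these embryos. It rests on all libraries of these genotypes, 3 of *nhomie reverse* and 2 of *nhomie forward*, which are 5 of the 11 libraries of the series. The other 6, 3 each of *λ DNA* (phage DNA in place of *nhomie*) and *homie forward* (*homie* in place of *nhomie*), were used only where stated.

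All libraries were made by MicroC from whole embryos aged 12–16 hr and labeled stage 14. Chromatin was crosslinked and cut to nucleosomes with MNase, ends that lay close together were ligated, and both ends of each product were sequenced. Both genotypes carried the same cassette exchange at the *nhomie* site, with integration sites that the unmodified chromosome lacks, so that by design they differed in the orientation of *nhomie* and not in its presence. Each library pools the cells of many embryos, and all cell types are averaged. In RefSeq on Release 6, *eve* lies on chromosome arm 2R at 9979319 to 9980795, between *CG12134* (9971143 to 9972780) and *TER94* (9989159 to 9993559), which encodes an AAA ATPase. The separation of these neighbors, 16378 bp, falls into the class of 10000 to 17783 bp of the deposited counts. The counts are sums over the genome, so that contacts of the *eve* TAD itself are not resolved in any value below.

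A unique contact is a read pair left after the authors removed duplicates, half-mapped pairs and pairs of low mapping quality. There were 179M, 213M and 171M unique contacts in *nhomie reverse* replicates 1, 2 and 3, and 341M and 472M in *nhomie forward* replicates 1 and 2. Cis contacts have both ends on the same arm, and those with ends 1 kb or more apart, called long cis contacts below, made up 24.7%, 54.6% and 54.3% of unique contacts in the *nhomie reverse* replicates and 58.2% and 59.1% in the *nhomie forward* replicates. *nhomie reverse* replicate 1 thus stood apart from the other 4 libraries, and the results are given with and without it. Replicates 1 of *λ DNA* and *homie forward* were low as well, with 37.5% and 31.6%, and all 3 *nhomie reverse* libraries together did not differ from all others by the test (difference -2.55 points, exact permutation test, p = 0.764). In *nhomie reverse* replicate 1, inward-facing pairs under 1 kb, which include fragments that were never ligated, were 55.4% of unique contacts. They were 21.4% and 21.7% in replicates 2 and 3 and 21.0% and 19.8% in *nhomie forward*. Replicates 1 of *homie forward* and *λ DNA* were high as well, with 50.9% and 45.1%. Their replicates 2 and 3 had 33.8% and 34.5% in *homie forward* and 25.9% and 26.3% in *λ DNA*. Whether these short pairs had a part in any difference below was not tested. Replicates 2 and 3 of *nhomie reverse* were nearly the same in their spread over separations. Their chi-square was 1.72 per degree of freedom (chi-square test of counts, p = 0.0318), against 53.8 for the deeper *nhomie forward* pair. For means and SDs they entered as 1 sample, which leaves n = 2 for both genotypes. The tests counted them separately unless stated. Counting error was small beside the spread between libraries, at most 0.0102 percentage points on either side of the share of long cis contacts in any library (95% Wilson interval, counting error only). With 3 libraries against 2, an exact permutation test cannot give p under 0.1, and only comparisons of *nhomie reverse* with all 8 other libraries could pass 0.05. By the study's methods the replicates were independent biological replicates, each made from many embryos.

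Contacts between arms (trans contacts) were more frequent in *nhomie reverse*. They were 13.8%, 12.9% and 12.9% of unique contacts in replicates 1, 2 and 3 and 8.48% and 8.73% in the *nhomie forward* replicates, so that the lowest *nhomie reverse* library lay above the highest *nhomie forward* library. The means were 13.4% ± 0.668 (SD, n = 2) and 8.61% ± 0.172 (SD, n = 2), and the difference over the 5 libraries was 4.61 percentage points (exact permutation test, two-sided, p = 0.1, the smallest possible). All 3 *nhomie reverse* libraries were also above the 8 other libraries of the series (exact permutation test, p = 0.00606, the smallest possible). This difference, 4.14 points, held with replicates 2 and 3 as 1 sample (exact p = 0.0357) and without replicate 1 of *nhomie reverse*, *λ DNA* and *homie forward* (exact p = 0.0357), which is the smallest p that either design can give. Adjusted over all 19 single measures that were tested against all other libraries, the exact permutation test gave p = 0.0576 and so missed 0.05. The long cis contacts moved the other way. For each of them there were 0.561, 0.237 and 0.237 trans contacts in *nhomie reverse* and 0.146 and 0.148 in *nhomie forward*. Replicates 2 and 3 thus had 1.62 times the *nhomie forward* mean, and replicate 1 was higher still (exact permutation test over the 5 libraries, p = 0.3; against all other libraries, exact p = 0.0606, Benjamini-Hochberg adjusted p = 0.167 over 11 measures). By this measure *homie forward* replicate 1 (0.296) and *λ DNA* replicate 1 (0.264) lay above *nhomie reverse* replicates 2 and 3. Pairs under 1 kb, which count among unique contacts only, were 59.1% and 52.7% of unique contacts in these libraries. In the *nhomie reverse* replicates they were 61.5%, 32.5% and 32.8%.

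*nhomie reverse* libraries held a smaller share of contacts than *nhomie forward* at separations typical of TADs and a larger share at separations of megabases. The range from 10 to 100 kb covers the size of most fly TADs. Of the long cis contacts, 23.4%, 27.8% and 27.7% fell there in *nhomie reverse* and 29.4% in each *nhomie forward* library. The *nhomie reverse* mean was 25.6% ± 3.11 (SD, n = 2) and the *nhomie forward* mean 29.4% ± 0.00972 (SD, n = 2). The ranges did not overlap, and without replicate 1 the difference was -1.67 points, where the *nhomie forward* libraries differed from each other by 0.0138 points (exact permutation test over the 5 libraries, p = 0.3). The *λ DNA* and *homie forward* libraries, from 27.1% to 28.4%, were below *nhomie forward* too, and against all other libraries the difference was -1.82 points (exact permutation test, p = 0.133, adjusted p = 0.219). At 1 Mb or beyond, the distance of contacts along whole arms, the shares were 29.8%, 20.9% and 20.9% in *nhomie reverse* and 18.7% in each *nhomie forward* library. The means were 25.4% ± 6.32 and 18.7% ± 0.0482 (SD, n = 2 each), and without replicate 1 the difference was 2.22 points. Against all other libraries the share at 1 Mb or beyond gave p = 0.0242 (exact permutation test), which did not hold after adjustment over the 11 measures (adjusted p = 0.133). *λ DNA* replicate 1 and *homie forward* replicate 1 (20.8% and 21.1%) reached the level of *nhomie reverse* replicates 2 and 3.

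**Figure D1:**
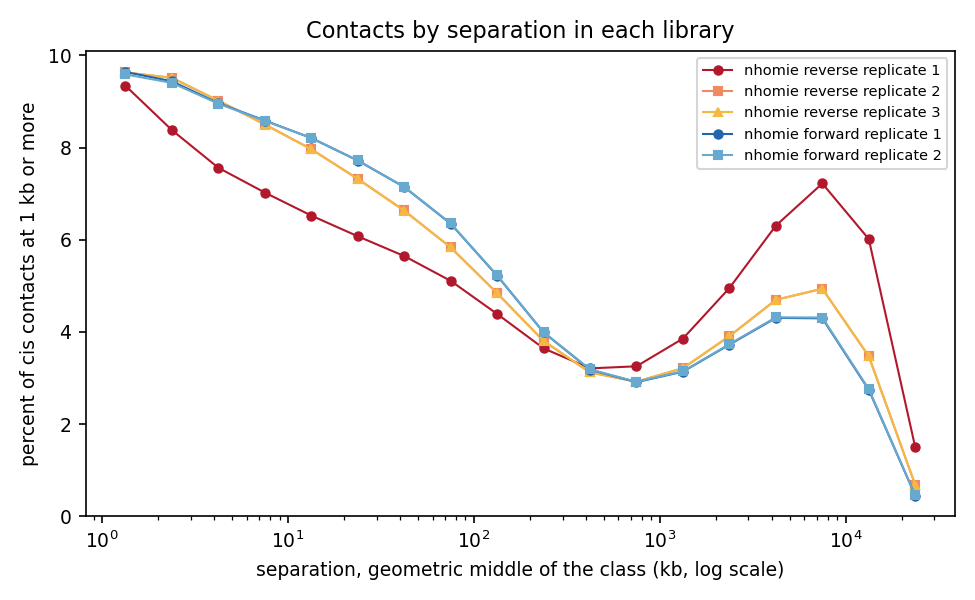
Percent of long cis contacts (ends 1 kb or more apart, vertical axis) in each of 18 classes of separation (horizontal axis, log scale), 1 line per library. The *nhomie reverse* libraries lie below *nhomie forward* from 10 to 100 kb (23.4% to 27.8% against 29.4% in all) and above it at 1 Mb or beyond, replicate 1 the most.

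The separations between these ranges differed less. From 100 kb to 1 Mb the *nhomie reverse* libraries held 14.5%, 14.7% and 14.7% of the long cis contacts and the *nhomie forward* libraries 15.3% each, a difference of -0.691 points with no overlap (exact permutation test, p = 0.1, the smallest possible). Against all other libraries the difference had the opposite sign, 0.342 points (exact p = 0.503). From 1 to 10 kb, where single genes and their enhancers contact each other, the shares were 32.3%, 36.7% and 36.7% in *nhomie reverse* and 36.6% and 36.5% in *nhomie forward*. Replicate 1 was the only library set apart in this range. Without it the difference changed from -1.37 to 0.0842 points, less than the 0.109 points between the *nhomie forward* libraries. The class of 10000 to 17783 bp held 6.52%, 7.97% and 7.96% in *nhomie reverse* and 8.21% in each *nhomie forward* library. That is 0.970 times the *nhomie forward* mean in replicates 2 and 3 and 0.795 times in replicate 1 (exact permutation test against all other libraries, p = 0.0485, adjusted p = 0.167).

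The difference varied gradually over the single classes of separation. Of the 19 classes at 1 kb or more, 15 (78.9%) did not overlap between *nhomie reverse* and *nhomie forward*, with 7 lower in *nhomie reverse* (36.8%) and 8 higher (42.1%). The classes lower in all 3 libraries ran without a break from 5623 bp to 316228 bp, and those higher in all 3 from 562341 bp upward. Without replicate 1, 18 classes (94.7%) did not overlap, 8 lower (42.1%) and 10 higher (52.6%). The shares of one library add up to 100%, so that these classes are not separate observations. In replicates 2 and 3 the lowest ratio to *nhomie forward* was from 56234 to 100000 bp, where they held 5.83% and 5.84% against 6.35% in each *nhomie forward* library, a log2 ratio of -0.12. In replicate 1 it was at 17783 to 31623 bp, with 6.08% against 7.72%. The shortest class, 1000 to 1778 bp, did overlap, with 9.34%, 9.63% and 9.63% in *nhomie reverse* and 9.64% and 9.59% in *nhomie forward*.

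By log2 ratio, the 3 classes that differed most were the 3 longest, while in points the largest difference was 1.57, from 10000000 to 17782794 bp. From 10000000 to 17782794 bp, the *nhomie reverse* replicates held 6.01%, 3.47% and 3.48% and the *nhomie forward* replicates 2.74% and 2.76%, so that replicates 2 and 3 had 1.26 times and replicate 1 had 2.19 times the *nhomie forward* mean. From 17782794 to 31622777 bp, nearly the length of an arm, the shares were 1.50%, 0.678% and 0.679% against 0.450% and 0.454%, which is 1.50 times in replicates 2 and 3 and 3.31 times in replicate 1. The longest class, which begins at 31622777 bp and can be reached only on 3R, held between 51 and 104 contacts per library. Per 1M long cis contacts this was 2.35 (95% exact Poisson interval 1.92 to 2.85), 0.732 (0.585 to 0.905) and 0.572 (0.429 to 0.748) in *nhomie reverse* and 0.257 (0.192 to 0.338) and 0.258 (0.202 to 0.325) in *nhomie forward*. The intervals cover counting error only. The other 6 libraries had from 0.512 to 1.11, a range that holds *nhomie reverse* replicates 2 and 3 (exact permutation test against all other libraries, p = 0.115, adjusted p = 0.168). Against all other libraries, 0 of 19 classes passed an adjusted p of 0.05 and 8 had an unadjusted p under it (exact permutation tests, 42.1%). The smallest p was in the 2 classes from 1778279 to 5623413 bp, where all 3 *nhomie reverse* libraries were above all 8 others (exact p = 0.00606, the smallest possible, adjusted p = 0.0576). Of these, the class from 1778279 bp held 4.95%, 3.909% and 3.907% in *nhomie reverse* and at most 3.901% in the 8 others, so that replicates 2 and 3 were barely above. The class from 3162278 bp held 6.31%, 4.70% and 4.69% in *nhomie reverse* and 4.30% and 4.32% in *nhomie forward*. It held at most 4.67% in the other libraries. With replicates 2 and 3 as 1 sample, 0 of 19 classes passed and 3 had an unadjusted p under 0.05 (exact permutation tests). Without *nhomie reverse* replicate 1, 0 of 19 passed and 2 had an unadjusted p under 0.05 (exact permutation tests).

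**Figure D2:**
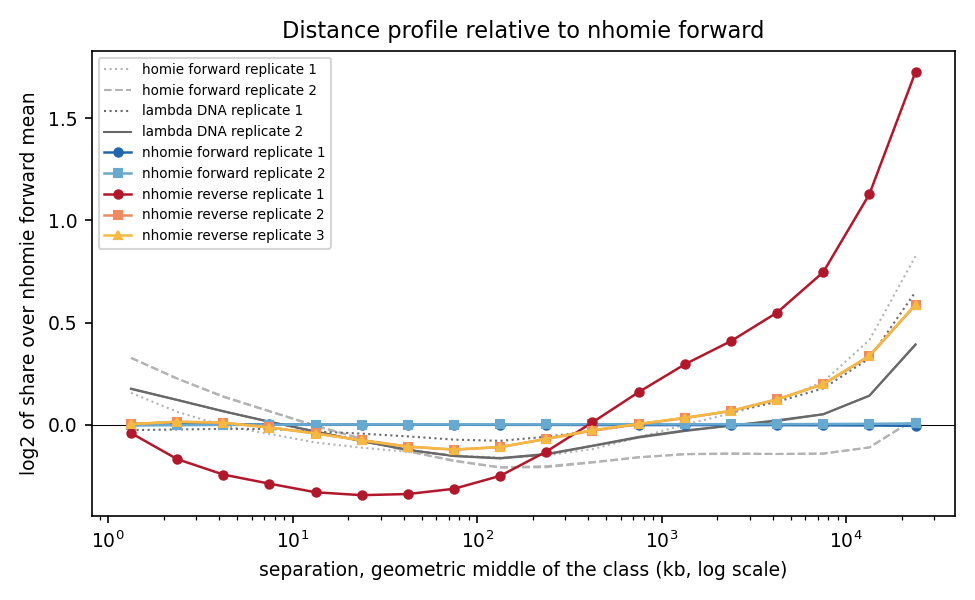
Log2 ratio of each library's share in a class of separation to the *nhomie forward* mean (vertical axis) against separation (horizontal axis, log scale). *λ DNA* is in dark gray and *homie forward* in light gray, dotted for replicate 1. Replicates 2 and 3 of *nhomie reverse* coincide and fall to -0.12 at 56234 to 100000 bp and reach 0.59 in the last class drawn.

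Contact frequency decayed less steeply with separation in *nhomie reverse* from 10 kb to 1 Mb. On log10 scales, the slope of the contact density (contacts per bp of separation) against separation was -1.20, -1.27 and -1.27 in *nhomie reverse* and -1.28 in each *nhomie forward* library. The difference was 0.0349 with all libraries (exact permutation test, p = 0.5) and 0.00998 without replicate 1, against 0.000629 between the *nhomie forward* libraries. All 3 *nhomie reverse* libraries were less steep than the 8 other libraries (exact permutation test, p = 0.00606, the smallest possible, adjusted p = 0.0667), whose slopes ran from -1.31 to -1.28. With replicates 2 and 3 as 1 sample, the exact permutation test gave p = 0.0357, the smallest possible, and an adjusted p of 0.262. The direction depended on the range of separations. From 1 to 100 kb, *nhomie reverse* was steeper than *nhomie forward* by -0.0318 (exact permutation test, p = 0.1, the smallest possible).

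Set against contacts between arms, those within arms were less frequent in *nhomie reverse* in each of the 18 classes from 1000 to 31622777 bp. For this, the density of contacts per pair of base pairs at each separation was divided by the density between the 5 large arms (2L, 2R, 3L, 3R and X) of the same library. At 10000 to 17783 bp it was 788, 2297 and 2291 times the density between arms in *nhomie reverse* and 3837 and 3790 times in *nhomie forward*. The *nhomie forward* mean was 1.66 times that of *nhomie reverse* replicates 2 and 3 and 4.84 times that of replicate 1. This ratio to replicates 2 and 3 was 1.61 at 1000 to 1778 bp, reached 1.76 at 56234 to 100000 bp and was smaller in each longer class. From 1000000 to 1778279 bp the densities were still 5.00, 9.95 and 9.94 times that between arms in *nhomie reverse* and 15.8 and 15.6 times in *nhomie forward*. From 17782794 to 31622777 bp they were 0.892, 0.966 and 0.965 in *nhomie reverse* and 1.04 and 1.03 in *nhomie forward*, close to the density between arms in both genotypes. The ranges of the genotypes did not overlap in any of the 18 classes. All classes of a library were divided by the same density between arms, so that they are not separate observations. The difference in trans contacts given above enters each of them. In the longest class, which was left out because of its low counts, the direction was the opposite, with 4.19, 3.09 and 2.41 contacts per 1M trans contacts in *nhomie reverse* and 1.76 and 1.75 in *nhomie forward*.

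**Figure D3:**
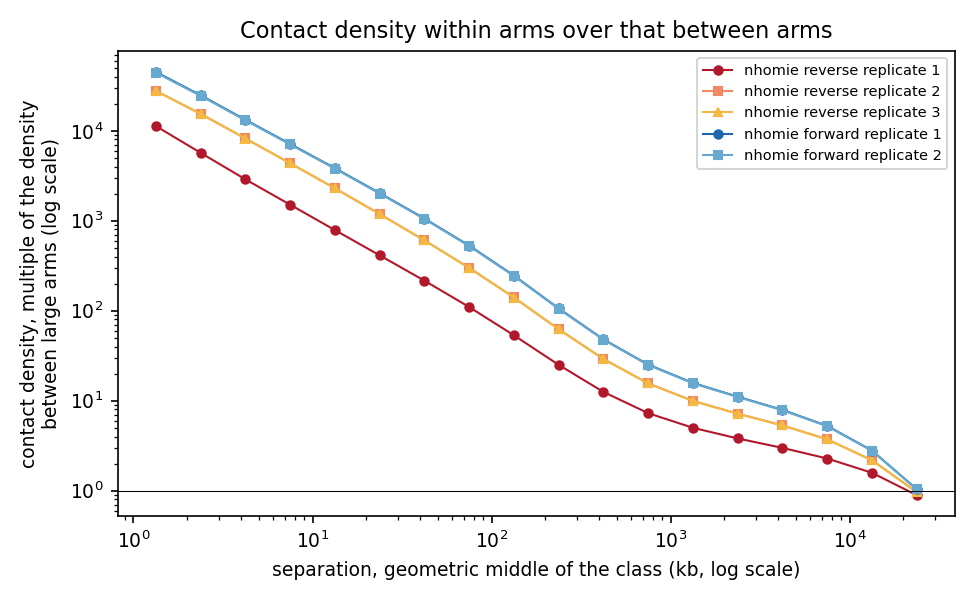
Density of contacts within arms as a multiple of the density between the 5 large arms of the same library (vertical axis, log scale) against separation (horizontal axis, log scale), with a horizontal line at 1. The *nhomie forward* libraries are highest, *nhomie reverse* replicates 2 and 3 lie below them, replicate 1 is lowest, and all come close to 1 in the last class.

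The 4 read orientations, which are equally frequent when both ends come from ligation at random, were unequal only at short separations. The genotypes differed little in this. From 1000 to 1778 bp, 28.7%, 28.0% and 28.0% of contacts faced inward in *nhomie reverse* and 28.1% in each *nhomie forward* library, so that the *nhomie reverse* libraries lay on both sides of *nhomie forward*. The largest deviation of any orientation from 25% in these 5 libraries was 3.74 points there, 0.280 points at 10000 to 17783 bp and at most 0.141 points at longer separations. In the classes from 3162 to 17783 bp the inward shares did not overlap and were higher in *nhomie reverse*. From 5623 to 10000 bp they were 26.3%, 25.6% and 25.6%, against 25.5% in each *nhomie forward* library. Over pairs whose reads point the same way alone, which hold no unligated fragments, the difference from 10 to 100 kb was -3.13 points, against -3.14 points over all orientations.

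The inverted element lies on 2R, so that this arm was compared with the others. Of all contacts within 2L, 2R, 3L, 3R and X, 2R held 19.7%, 19.8% and 19.8% in *nhomie reverse* and 19.8% in each *nhomie forward* library. The difference of the means was -0.0156 points, smaller than the 0.0392 points between the *nhomie forward* libraries, and its sign was not stable (0.0398 without replicate 1). In contacts between these arms, 39.9% had an end on 2R in each *nhomie reverse* library, against 40.6% and 40.5% in *nhomie forward*. This difference of -0.638 points had no overlap and was the same with and without replicate 1 (-0.644 without it; exact permutation test, p = 0.1, the smallest possible), but *homie forward* replicate 1 was lower still, with 39.7% (against all other libraries, exact p = 0.139, adjusted p = 0.219). Among the contacts of 2R with large arms, only those with 2L, the other arm of its own chromosome, were a smaller share of trans contacts. Contacts of 2R with 2L were 9.80%, 10.97% and 10.98% of trans contacts in *nhomie reverse* and 12.0% and 11.9% in *nhomie forward*. Among the contacts between different large chromosomes alone, the share with an end on 2R was 39.5%, 39.0% and 39.0% in *nhomie reverse* and 39.6% and 39.5% in *nhomie forward*, so that replicate 1 lay among the *nhomie forward* values. The genome to which the authors aligned each genotype differed in the length of 2R by 10 bp, with 25287540 bp for *nhomie reverse* and 25287530 bp for *nhomie forward*.

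Within the single chromosomes, shares of all cis contacts differed little. Of the 8 sequences, 4 (50%) did not overlap, 3 higher in *nhomie reverse* (37.5%) and 1 lower (12.5%), and without replicate 1 it was 7 (87.5%). Chromosome 4, which is small and largely heterochromatic, held 0.600%, 0.648% and 0.648% of cis contacts in *nhomie reverse* and 0.556% and 0.574% in *nhomie forward*. As a ratio of the means, the X chromosome was higher by less (1.02 times against 1.12 times for chromosome 4). In points it was higher by more (0.309 against 0.0668). The X chromosome held 15.0%, 14.3% and 14.2% against 14.2% in each *nhomie forward* library, and 3R was lower, with 25.9%, 26.2% and 26.2% against 26.4% in each. The mitochondrial genome, the remaining one that was higher, held 0.0273%, 0.0158% and 0.0169% against 0.0126% and 0.0125%. 2L, 2R and 3L overlapped between the genotypes. None of the 8 passed 0.05 against all other libraries, adjusted or not (0 of 8 at an unadjusted p under 0.05, exact permutation tests).

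Trans contacts rose for nearly all pairs of sequences. As shares of unique contacts, 34 of the 36 pairs (94.4%) did not overlap between the genotypes, 28 higher in *nhomie reverse* (77.8%) and 6 lower (16.7%). Without replicate 1 it was 36 (100%), 29 higher (80.6%) and 7 lower (19.4%). Against all other libraries, 29 pairs (80.6%) passed an adjusted p of 0.05 and 30 (83.3%) an unadjusted one (exact permutation tests). The 29 were 25 of the 28 trans pairs, all higher in *nhomie reverse*, and the contacts within 2L, 2R, 3L and 3R, all lower. The 36 shares of one library add up to 100%, so that these pairs are not separate observations. The share of all trans contacts, which they divide up, missed 0.05 after adjustment (exact permutation test, adjusted p = 0.0576). With replicates 2 and 3 as 1 sample, 0 passed and 22 had an unadjusted p under 0.05, where the smallest p is 0.0357. The 10 pairs of large arms were 1.38 to 1.57 times as frequent in *nhomie reverse* replicates 2 and 3 as the *nhomie forward* mean and 1.32 to 1.76 times in replicate 1. By log2 ratio of the means, contacts of the mitochondrial genome with 2L, 3L and 2R differed most. In replicate 1, however, they had only 1.57 to 1.61 times the *nhomie forward* mean. Every pair of large arms on different chromosomes (1.66 to 1.76 times) and 2L with Y (1.92 times) were higher there. Mitochondrial contacts with 2L were 0.0158%, 0.0237% and 0.0234% of unique contacts in *nhomie reverse* and 0.00989% and 0.0103% in *nhomie forward* (exact permutation test against all other libraries, p = 0.0303, adjusted p = 0.0376). Contacts between the mitochondrial and nuclear genomes made up 0.973% and 0.960% of trans contacts in replicates 2 and 3, above the 0.629% and 0.642% of *nhomie forward*, whereas replicate 1 had 0.619%. *λ DNA* replicates 2 and 3 had 1.04% and 1.03% and its replicate 1 had 0.545%.

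Within the trans contacts, arms of the same chromosome took a smaller share in *nhomie reverse* and arms of different chromosomes a larger one. As shares of trans contacts, 16 of the 28 pairs (57.1%) did not overlap, 9 higher in *nhomie reverse* (32.1%) and 7 lower (25%). Without replicate 1 it was 27 (96.4%), 18 higher (64.3%) and 9 lower (32.1%). Contacts between 3L and 3R, the arms of chromosome 3, were 14.04%, 15.0% and 15.0% in *nhomie reverse* and 15.8% in each *nhomie forward* library, and those between 2L and 2R were lower too, as given for 2R. Together these arms of the same chromosome took 24.7%, 27.1% and 27.1% of the contacts between large arms in *nhomie reverse* and 29.0% and 28.9% in *nhomie forward*. *λ DNA* (26.1% to 27.0%) and *homie forward* (25.6% to 27.6%) were below *nhomie forward* as well, and *nhomie reverse* did not differ from all others by the test (exact permutation test, p = 0.297). The 8 pairs of large arms on different chromosomes were all higher, from 2L with 3L (9.33%, 9.03% and 9.04% against 8.61% and 8.62%) to 2R with X (7.02%, 6.78% and 6.78% against 6.76% in each).

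Among pairs of nuclear chromosomes without overlap, the 4 largest log2 ratios of the share of trans contacts were in pairs with chromosome 4 or Y, both rich in heterochromatin. In points these rare pairs differed little, and the largest differences were in 2L with 2R (-1.38 points) and 3L with 3R (-1.14 points). Among pairs with at least 10000 contacts in each library and no overlap, X with Y had the largest log2 ratio, with 0.117%, 0.126% and 0.126% of trans contacts in *nhomie reverse* and 0.163% and 0.161% in *nhomie forward*, a log2 ratio of -0.40. All 3 libraries were below all 8 others for this pair (exact permutation test, p = 0.00606, the smallest possible, adjusted p = 0.170 over 28 pairs). Chromosome 4 with X followed, with 0.327%, 0.401% and 0.402% against 0.488% and 0.490%, a log2 ratio of -0.38 (exact permutation test against all other libraries, p = 0.109). Contacts of 2R with chromosome 4 were 0.400%, 0.481% and 0.483% against 0.527% and 0.533%, a log2 ratio of -0.22 (exact permutation test against all other libraries, p = 0.194). Chromosome 4 with Y, which had at least 2724 contacts in each library and was added after its values were seen, held 0.0110%, 0.0141% and 0.0139% in *nhomie reverse* and 0.0283% and 0.0286% in *nhomie forward*. Replicates 2 and 3 thus had 0.494 times the *nhomie forward* mean and replicate 1 had 0.386 times (exact permutation test against all other libraries, p = 0.0424, adjusted p = 0.297). As a share of unique contacts this pair was also lower in all 3 libraries, the only trans pair that was, with 0.00152%, 0.00183% and 0.00180% against 0.00240% and 0.00250%. All 8 other libraries ran from 0.00144% to 0.00250%, a range that holds these 3 (exact permutation test against all other libraries, p = 0.770). Chromosome 4 with 2L, 3L or 3R overlapped between the genotypes, since replicate 1 was below *nhomie forward* and replicates 2 and 3 were close to it or above. Of the 28 pairs, 0 passed an adjusted p of 0.05 against all other libraries and 4 (14.3%) had an unadjusted p under it (exact permutation tests). With replicates 2 and 3 as 1 sample, 0 passed and 1 had an unadjusted p under 0.05.

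**Figure D4:**
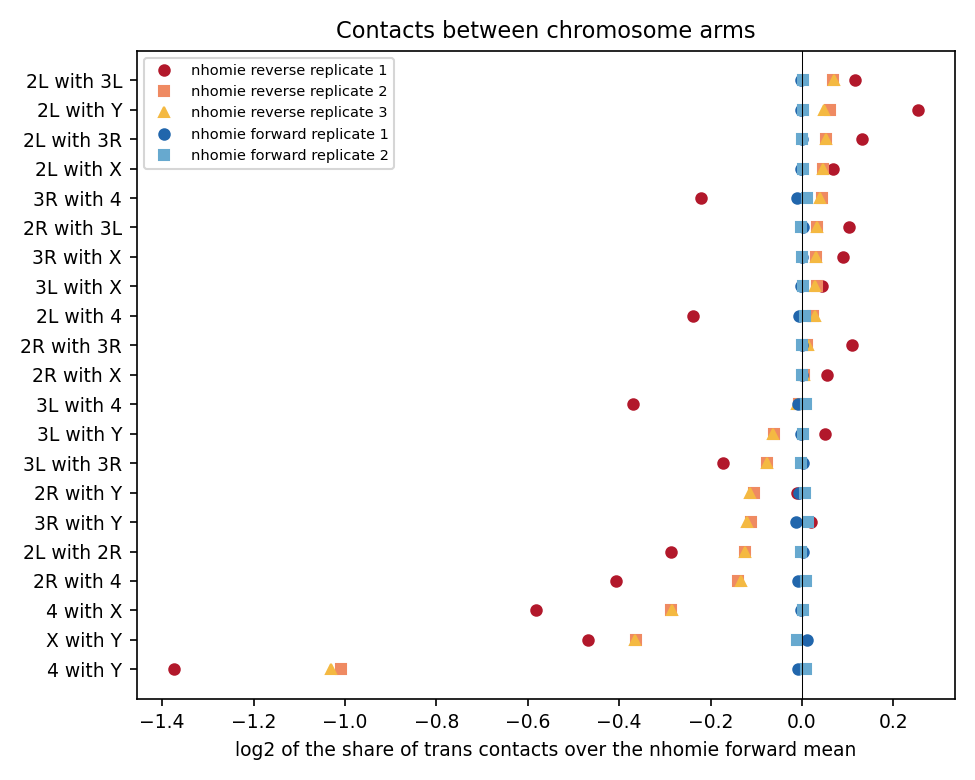
Log2 ratio of each library's share of trans contacts to the *nhomie forward* mean (horizontal axis) for the 21 pairs of nuclear sequences (vertical axis, ordered by the mean of *nhomie reverse* replicates 2 and 3). Chromosome 4 with Y lies lowest (-1.02 in replicates 2 and 3), and the 2 *nhomie forward* libraries stay next to 0 in every pair.

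Contacts of 2R with 3L were 9.79%, 9.32% and 9.32% of trans contacts in *nhomie reverse* and 9.12% and 9.11% in *nhomie forward*, and those with 3R 12.0%, 11.2% and 11.2% against 11.1% in each. Contacts of 2R with Y were 0.135%, 0.127% and 0.126% against 0.135% and 0.137%, where replicate 1 differed from the lower *nhomie forward* library by less than the *nhomie forward* libraries did from each other. Contacts of 2R with the mitochondrial genome were 0.119%, 0.183% and 0.179% against 0.118% and 0.119%, so that replicate 1 lay among the *nhomie forward* values.

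Whole profiles were compared by the smallest percent of contacts that must be moved between classes to turn one library into another. Over the classes of separation it was 2.39% to 2.40% between *nhomie reverse* replicates 2 and 3 and the *nhomie forward* libraries, against 0.109% within *nhomie forward* and 0.0319% between these replicates. The distance of replicate 1 from its own replicates, 9.35% to 9.37%, was larger than that of replicates 2 and 3 from the other genotype. From *nhomie forward*, replicate 1 was 11.5% to 11.6% away. Measured from the same *nhomie forward* libraries, replicates 2 and 3 of *λ DNA* were 3.16% to 3.24% away and those of *homie forward* 5.27% to 5.41%. These comparisons share their reference libraries. Replicates 2 and 3 of *nhomie reverse* were 2.51% to 2.56% from those of *λ DNA* and 5.46% to 5.53% from those of *homie forward*. They were closer to replicate 1 of *λ DNA* (0.821% and 0.823%) and of *homie forward* (1.76% each). Replicates 2 and 3 were 0.0492% from each other in *λ DNA* and 0.0530% in *homie forward*. For trans contacts over the 28 pairs, replicates 2 and 3 of *nhomie reverse* were 1.99% to 2.05% from *nhomie forward* and only 0.414% to 0.431% from replicates 2 and 3 of *λ DNA*, against 0.0974% within *nhomie forward*.

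**Figure D5:**
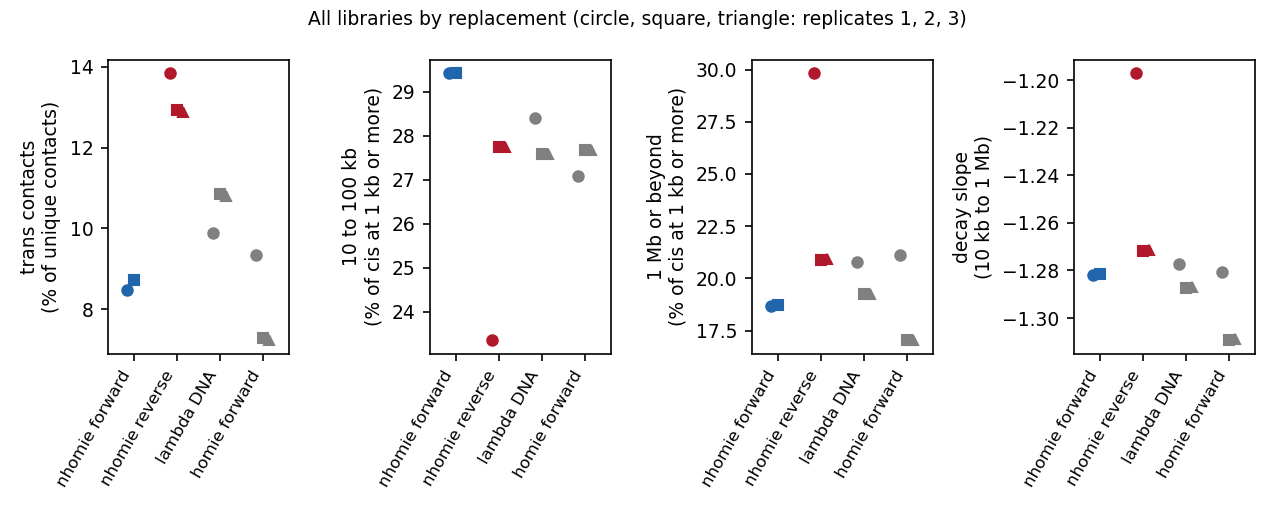
Each of the 11 libraries by replacement, with trans contacts as a percent of unique contacts, the shares of long cis contacts that lie from 10 to 100 kb and at 1 Mb or beyond, and the decay slope from 10 kb to 1 Mb (4 panels, vertical axes not from 0). In trans contacts (12.9% to 13.8%) and in slope (-1.27 to -1.20), *nhomie reverse* lies above every other library, while in the other 2 panels at least 1 of its libraries lies within the range of the others.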

How the data were processed

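Genome-wide pair counts of 3 *nhomie reverse* and 2 *nhomie forward* MicroC libraries were analysed, with 3 *λ DNA* and 3 *homie forward* libraries as a further reference. Genotype and replicate number came from the sample titles. The authors aligned reads with BWA-MEM to a custom genome for each genotype, edited from BDGP Release 6 (dm6), and used Pairtools to remove duplicates and half-mapped reads, keeping a mapping quality of at least 3. Versions are not given in the sources used here. What they deposited per library, before merging, is a list of 222 statistics of several other kinds (raw counts of pairs without normalization, fractions of the total, chromosome lengths). Only counts and lengths were used.

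Shares and tests were computed from these counts in scipy 1.17.1 and numpy 2.4.6 under Python 3.11.15, and matplotlib 3.10.9 drew the plots. Classes were 19 separations of 1 kb or more and 36 pairs of 8 sequences, and 11 measures were tested, besides 8 further single quantities. No count model was fitted, since the shares of a library sum to a fixed total. Tests were two-sided exact permutation tests of the difference of means, over 10 assignments (3 libraries against 2) or 165 (3 against 8), adjusted by the Benjamini-Hochberg method over the 11 measures, over all classes or, for trans contacts, over all 19 single measures. A 95% level was used for Wilson and Poisson intervals. Values of all libraries are given for the 3 classes of separation and the 3 pairs (with at least 10000 contacts) with the largest log2 ratio without overlap, and for pairs of 2R. Replicates left out, replicate blocks and other denominators, limits and orientations were tried as alternatives. Tests, slope and counts of classes were tested on simulated data. The measures and classes were chosen with earlier results of these data known.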

Additional observations from a re-analysis of the deposited data

How the results depend on the processing

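Of 139 values of *nhomie reverse* against *nhomie forward*, where no test could pass 0.05, 8 changed direction and 2 counts moved by over 1.5 times. Both of these counts were taken over fewer chromosome pairs (28 and 15) than the main count (36). Without *nhomie reverse* replicate 1, the difference in long cis contacts went from -14.1 to -4.21 points, that in trans contacts per long cis contact from 0.198 to 0.0903, and the percent to be moved between mean profiles from 5.31% to 2.39%. Of 143 values against all other libraries, 131 kept their direction and side of the threshold, 9 changed direction, 2 counts moved by over 1.5 times and 1 passed the threshold that it had missed. Cause was not tested in any of them.

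Over the libraries left out singly, the difference in the share from 1 to 10 kb ran from -2.09 to 0.0842 points, that in inward pairs at 1 to 1.8 kb from -0.103 to 0.259 points (against all others, from -0.254 to 0.108) and that in the share of 2R within arms from -0.0450 to 0.0398 points. The share of long cis contacts against all others ran from -7.57 to 7.37 points. It was 3.19 points with replicates 2 and 3 only, an alternative chosen after seeing the data, and 0.0996 points for contacts 20 kb or more apart. With replicates 2 and 3 as 1 sample, the differences from all others were 0.146 points for inward pairs and -0.00567 points for 2R, and 0 chromosome pairs passed, against 29. That count was 20 without replicate 2 or 3 of *nhomie reverse*, 24 without either *nhomie forward* library and 28 without *nhomie reverse* replicate 1.

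With the density between arms subtracted, the difference from 1 to 10 kb was 0.471 points, and that at 1 Mb or beyond against all others was 2.45 points (exact permutation test, adjusted p = 0.0333). As shares of all unique contacts, the difference at 1 Mb or beyond was -0.918 points and that from 100 kb to 1 Mb against all others -0.231 points. The slope differed by -0.0318 from 1 to 100 kb, inward pairs against all others by 0.0360 points at 1.8 to 3.2 kb, and 2R by 0.0690 points without X. Of the 15 pairs of large arms (within and between), all 15 did not overlap, and as shares of trans contacts 16 of 28 did not, against 34 of 36.

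Whether replicate numbers pair all libraries could not be told. The deviations of same-numbered libraries correlated from 0.690 to 0.955 in the 9 pairs among the genotypes with 3 libraries. Between these genotypes, replicates 2 and 3 correlated as highly with each other (up to 0.955). Replicate 1 correlated negatively with both (-0.955 to -0.690). In each of these genotypes replicates 2 and 3 were nearly the same, so that replicate 1 deviates from the mean opposite to both. The negative correlations thus follow from the positive ones and decide nothing about pairing. Pairs with *nhomie forward* went down to -0.924, but its 2 libraries deviate in mirror image, so that these signs decide nothing. With the replicate number as a block, 8 classes of separation passed against all others where 0 did without it, the trans contacts per long cis contact had an adjusted p of 0.0573 (exact permutation test), and 27 chromosome pairs passed. Depth limits only the longest class of separation and pairs with Y or the mitochondrial genome.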
